A study of Rana omeimontis with 12 samples.

Results

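The complement and coagulation factors of Rana omeimontis tadpoles are described here in liver and tail, with and without 3,3',5-triiodothyronine (T3), the active thyroid hormone. Members are assembled transcripts, called unigenes, whose best protein match is worded as a complement component or factor, a coagulation factor, a fibrinogen chain, prothrombin, plasminogen or one of its activators, kininogen, plasma kallikrein, C4b-binding protein, von Willebrand factor or a vitamin K-dependent protein. Wording for serpins, receptors and antithrombin was left out. Of 56172 unigenes, 123 matched, and 100 of them reached 1 FPKM in at least 3 of the 12 libraries. FPKM is the number of mapped fragments scaled to transcript length and library size. The 100 members carry 45 gene names, and 7 of them share only the wording. The match to a name is by sequence similarity to other species (46 members matched Xenopus tropicalis best), and no member was matched to a frog genome here.

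Complement is a cascade of plasma proteins that tags microbes and dying cells. The C1 complex starts the classical pathway, which cleaves C4 and C2, factor B and properdin serve the alternative pathway, all routes converge on C3 and C5, and C6 to C9 form a pore in membranes. Coagulation is a parallel cascade of proteases, most of them dependent on vitamin K, that ends in thrombin and a fibrin clot, which plasmin later dissolves. In mammals the hepatocyte makes most of these proteins, while C1q and the A subunit of factor XIII come largely from macrophages and other blood cells.

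The groups were livers and tails of tadpoles that received 10 nM T3 for 3 days, and livers and tails of tadpoles that received the solvent dimethylsulfoxide for as long (control). Treatment began at Gosner stages 30 to 31, with food offered to both groups, and each of the 4 groups had 3 libraries. The paper reports lower food intake and body weight in T3-treated tadpoles. An effect of T3 cannot be told apart here from one of reduced feeding. Whether a library pooled tadpoles, and whether a liver and a tail of the same number came from one animal, is not given in the sources used here, so p-values measure the spread between libraries, which may be in part technical. The question was how T3-driven metamorphosis changed transcript levels in each tissue.

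Summed FPKM ranged between 773936 and 1029985 per library, and the number of reads behind a value is unknown. T3-responsive genes rose in both tissues, as all 4 unigenes tested in the liver and all 5 tested in the tail for thyroid hormone receptor beta, Krueppel-like factor 9 and the thyroid hormone-induced bZip protein were called higher. Hepatocyte markers took 4.80 to 7.21% of FPKM in T3 livers and 1.56 to 2.62% in control livers. In T3 livers 6 of 22 tested were higher and 7 lower (3.83% and 8.67% of all unigenes tested). Median-ratio scaling gave 6 higher and 3 lower and quantile normalization 7 higher and 3 lower. In tails hepatocyte markers took 0.00385 to 0.00693% with T3 and 0.00388 to 0.00455% in controls. Control livers 1 and 2 stood apart, because exocrine pancreas markers made up 4.38 and 5.29% of their FPKM, against 0.0184% in control liver 3 and 0.00456 to 0.246% in T3 livers. Results in the liver are therefore also given without both libraries.

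The members were mostly liver transcripts. In control livers 83 of the 100 were higher than in control tails and 3 were lower, and the same counts of members did not overlap (non-overlap in 28.5% and 24.7% of all unigenes; percent of all 24085 unigenes tested called higher and lower, 22.5% and 20.4%, by limma, Benjamini-Hochberg adjusted p below 0.05, as in all calls below). The median log2 difference of log2(FPKM + 1) was 5.55 for members and 0.066 for all unigenes. In control livers 56 members averaged at least 100 FPKM, and 54 averaged under 1 FPKM in control tails. Fibrinogen, the precursor of fibrin, had the highest levels. Its beta chain had 11079.6, 8232 and 7262 FPKM in T3 livers, against 8151, 5837 and 5196 FPKM in control livers. Its most abundant alpha chain unigene had 10317, 8517 and 6519 FPKM in T3 livers, against 9169, 6329 and 5619 FPKM in control livers. Of the 100 unigenes with the highest mean FPKM, members made up 13 in T3 livers, 11 in control livers and 0 in either group of tails.

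A few members were lower in control livers than in control tails or differed little between them. Factor XIIIA, the catalytic subunit of the transglutaminase that cross-links fibrin, averaged 8.29 FPKM in control livers and 17.6 FPKM in control tails (log2 difference -0.94 ± 0.31, adjusted p = 0.0268). C1qB and C1qC, chains of the recognition part of C1, and a factor H unigene (TRINITY_DN86285_c0_g1) differed less between the tissues than the test could call (adjusted p = 0.113, 0.177 and 0.754). A unigene worded as partial factor V, with a hummingbird protein as its best match, averaged 139 FPKM in control livers and 116 FPKM in control tails (log2 difference 0.29 ± 0.27, adjusted p = 0.41). Properdin, which stabilises the C3 convertase and is made by leukocytes in mammals, was higher in liver, yet by less than most members, at 389 FPKM in control livers and 139 FPKM in control tails (log2 difference 1.56 ± 0.28, adjusted p = 0.000687).

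The whole set took 8.42, 7.43 and 6.91% of FPKM in T3 livers, against 7.45, 5.69 and 6.88% in control livers, and these ranges overlapped. Its parts differed. C2, C4, C3 and C5 together took 0.637, 0.721 and 0.672% in T3 livers, against 1.033, 0.809 and 1.17% in control livers, with no overlap. The C1 complex took 0.0303, 0.0220 and 0.0331% in T3 livers, against 0.0766, 0.0556 and 0.0904% in control livers. The vitamin K-dependent factors took 0.424, 0.461 and 0.498% in T3 livers, against 0.277, 0.307 and 0.346% in control livers. Fibrinogen took 5.06, 3.49 and 3.31% in T3 livers, against 3.80, 2.62 and 2.62% in control livers, and the groups overlapped. In bulk tissue, fewer cells of a type cannot be told apart from less RNA per cell.

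**Figure D1:**
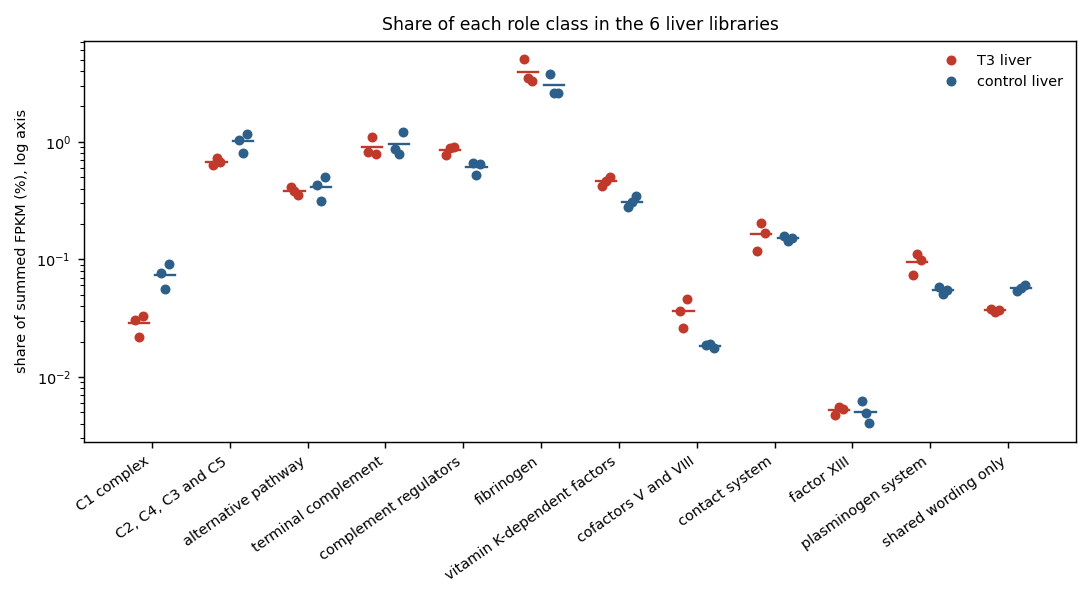
Share of each role class in the summed FPKM of the 6 liver libraries (percent, log axis), with T3 livers in red, control livers in blue, points for libraries and bars for their mean. T3 livers lie below control livers for the C1 complex and for C2, C4, C3 and C5, and above them for the vitamin K-dependent factors, the complement regulators, the cofactors and the plasminogen system.

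In the liver, 96 members passed the filter on low values and were tested. T3 livers had 8 members higher and 15 lower, which is 8.33% and 15.6% of those tested (3.83% and 8.67% of all 18923 unigenes tested, 12.5% in either direction). Median-ratio scaling gave 14 higher and 7 lower and quantile normalization 12 higher and 8 lower, with the median of all unigenes at a log2 difference of -0.26 as deposited and at -0.02 and -0.03 after these scalings. The share of all unigenes called under other scalings is not given here, for these or any other counts. Whether the members changed in such counts more than all unigenes did was not tested. Groups did not overlap for 16 members higher and 30 lower, or 16.7% and 31.2% (8.61% and 28.2% of all unigenes tested). The median log2 difference was -0.27 for members and -0.26 for all unigenes, so the set as a whole stood where the average transcript stood.

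Complement and coagulation were counted apart. Of 52 complement members tested, 0 were higher and 12 (23.1%) lower in T3 livers (3.83% and 8.67% of all unigenes tested). A negative difference was found in 39 (75%) of the 52, against 69.1% of all unigenes tested. At an unadjusted p below 0.05, limma gave 4 higher and 26 lower (1417 higher and 4252 lower of all 18923). Without moderation of the variance 0 passed adjustment in either direction (270 higher and 630 lower of all 18923). The balance of higher and lower complement calls depended on the scaling. Median-ratio scaling called 4 complement members higher (3 regulators and 1 terminal unigene) and 5 lower, and quantile normalization 2 higher and 6 lower. Of 38 coagulation and fibrinolysis members tested, 7 were higher and 2 lower (3.83% and 8.67% of all unigenes tested). A positive difference was found in 26 (68.4%) of the 38, against 30.9% of all unigenes tested. The calls of coagulation and fibrinolysis members were 9 higher and 1 lower under either of these scalings. Several unigenes of one name may be fragments or alleles of one gene, so these counts are not counts of independent genes.

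**Figure D2:**
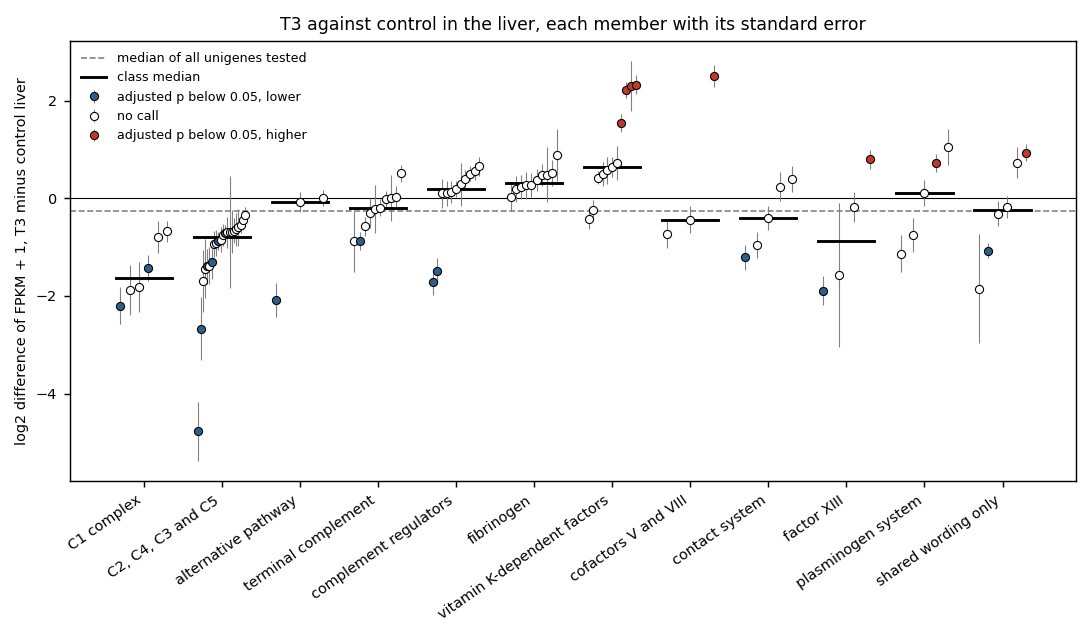
Log2 difference of FPKM + 1 between T3 and control livers for the 96 members tested, grouped by role, with standard errors; filled points passed an adjusted p of 0.05 and the dashed line is the median of all unigenes. All 22 unigenes of C2, C4, C3 and C5 and all 6 of the C1 complex lie below 0, and all 10 fibrinogen unigenes lie above it.

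All 23 calls kept their direction in each of the 6 fits that left out 1 library, and 10 of them stayed called in every one. Those 10 are C1qA, one C3 unigene, the minor factor B, factor V, one factor H, one lower factor XIIIB, the binding protein of PAI-1 mRNA, factor IX and both protein C unigenes. The count of calls was 12 without control liver 1 or without control liver 3, 13 without control liver 2, and 17 to 20 without a T3 liver. With control livers 1 and 2 both left out, all 23 kept their direction and 2 stayed called, the C3 unigene and one protein C. That fit has 1 control library, whose spread is taken to be that of the T3 livers.

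The C1 complex is made of C1q, which has A, B and C chains, and the proteases C1r and C1s. All 6 of its unigenes were lower in mean in T3 livers, 2 of them called, with a median log2 difference of -1.62. Of all unigenes tested in the liver, 69.1% had a negative difference and 8.67% were called lower. C1qA had 44.1, 24.2 and 62.8 FPKM in T3 livers, against 271, 147 and 175 FPKM in control livers. The groups did not overlap (log2 difference -2.20 ± 0.38, adjusted p = 0.0133). C1qB had 53.3, 11.6 and 41.1 FPKM in T3 livers, against 104, 91.6 and 128 FPKM in control livers, and C1qC had 69.8, 13.5 and 31.1 FPKM in T3 livers, against 139.9, 119.9 and 94.96 FPKM in control livers. Neither overlapped and neither was called (log2 difference -1.82 ± 0.51, adjusted p = 0.0566; log2 difference -1.88 ± 0.52, adjusted p = 0.0545), and T3 liver 2 was lowest for all 3 chains. C1r, the protease that activates C1s, had 1 of its 2 unigenes called. That unigene fell to 28.3, 29.3 and 27.3 FPKM in T3 livers, against 65.3, 60.6 and 119 FPKM in control livers (log2 difference -1.43 ± 0.28, adjusted p = 0.0194). Without T3 liver 3 its adjusted p was 0.0507, and the call was also lost under median-ratio scaling. The other C1r unigene was lower without overlap and was not called. C1s, which cleaves C4 and C2, averaged 122 ± 26.4 FPKM in T3 livers and 222 ± 97.96 FPKM in control livers (SD, n = 3 each) and was not called (log2 difference -0.79 ± 0.33, adjusted p = 0.157).

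Macrophage and leukocyte markers took 0.00564, 0.00109 and 0.00430% of FPKM in T3 livers, against 0.00619, 0.00516 and 0.00640% in control livers, and T3 liver 2 was again lowest. All 5 unigenes of that list tested in the liver had a negative difference, as did 69.1% of all unigenes tested there. Of the 5, limma called 0. At an unadjusted p below 0.05, 2 were lower (4252 of all 18923), and 0 were called without moderation. The C1q chains took 0.0170, 0.00512 and 0.0140% of FPKM in T3 livers, against 0.05003, 0.0348 and 0.0416% in control livers. The part of these cells in the C1q values was not tested.

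The middle of the cascade was lower in mean throughout. All 22 unigenes of C2, C4, C3 and C5 had a negative difference, with a median of -0.80. Of them, 6 were called and 14 did not overlap between groups. Of all unigenes tested in the liver, 69.1% had a negative difference, 8.67% were called lower and 28.2% were lower without overlap. Under median-ratio scaling and under quantile normalization all 22 stayed negative, with 1 called under each. C3, on which every pathway converges, was spread over 17 unigenes, and 5 of them were called. The unigene with the most C3 signal had 2469, 2106 and 2333 FPKM in T3 livers, against 3380.2, 2429 and 2970.2 FPKM in control livers, and its groups overlapped (log2 difference -0.34 ± 0.17, adjusted p = 0.224). The next had 1345, 1141 and 1256 FPKM in T3 livers, against 2119, 1558 and 1793 FPKM in control livers with no overlap and no call (log2 difference -0.54 ± 0.17, adjusted p = 0.0739). A minor C3 unigene had the largest fall of any member. TRINITY_DN99407_c1_g1 had 0.91, 1.98 and 2.68 FPKM in T3 livers, against 184, 30.6 and 72.01 FPKM in control livers (log2 difference -4.77 ± 0.60, adjusted p = 0.00407), and control liver 1 held most of its signal. Without control livers 1 and 2 it stayed called (log2 difference -4.73, adjusted p = 0.0222).

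A further C3 unigene, TRINITY_DN112843_c3_g4, had 20.5, 1.77 and 7.31 FPKM in T3 livers, against 45.6, 48.1 and 54.8 FPKM in control livers (log2 difference -2.67 ± 0.65, adjusted p = 0.038). It lost its call without T3 liver 3 or without any one control liver, with adjusted p of up to 0.117, and under median-ratio scaling and quantile normalization. The other 3 called C3 unigenes and C5 were named after their values were seen. Those 3 C3 unigenes averaged 179.6, 72.7 and 48.6 FPKM in T3 livers, against 449.8, 190.3 and 89.5 FPKM in control livers (log2 differences of -1.31, -1.39 and -0.87). C5, the source of the C5a peptide and the start of pore formation, had 316, 294 and 309 FPKM in T3 livers, against 565, 436 and 516 FPKM in control livers (log2 difference -0.71 ± 0.16, adjusted p = 0.0322). Each of these 4 lost its call in 5 or 6 of the 6 fits without 1 library, among them all those without a control liver, with adjusted p of up to 0.146, and under median-ratio scaling and quantile normalization. C2 and one C4 unigene did not overlap and lay just short of the threshold. C2 had 114, 127 and 92.7 FPKM in T3 livers, against 193, 164 and 304 FPKM in control livers (log2 difference -0.94 ± 0.26, adjusted p = 0.0564). C4 unigene TRINITY_DN119250_c0_g1 had 454, 667 and 739 FPKM in T3 livers, against 962, 934 and 1447 FPKM in control livers (log2 difference -0.84 ± 0.25, adjusted p = 0.0678). The second C4 unigene overlapped and averaged 753 ± 337 FPKM in T3 livers and 1126 ± 319.6 FPKM in control livers (SD, n = 3 each, log2 difference -0.63 ± 0.34, adjusted p = 0.257).

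Of the 3 alternative pathway unigenes, 1 was called, and it was lower (8.67% of all unigenes tested in the liver were called lower). Factor B, the protease of the alternative C3 convertase, had a major unigene with 3431, 3289 and 2959 FPKM in T3 livers, against 3357, 2616 and 3730.1 FPKM in control livers, and the groups overlapped (log2 difference 0.01 ± 0.17, adjusted p = 0.978). Its minor unigene, from another assembly component, fell to 126, 89.0 and 138 FPKM in T3 livers, against 611, 286 and 677 FPKM in control livers (log2 difference -2.08 ± 0.35, adjusted p = 0.0127). Properdin averaged 372 ± 75.6 FPKM in T3 livers and 389 ± 56.4 FPKM in control livers (SD, n = 3 each, log2 difference -0.07 ± 0.20, adjusted p = 0.852).

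The terminal components had 0 higher and 1 lower of 10 tested (3.83% and 8.67% of all unigenes tested). C9, which polymerises into the pore, had 3 abundant unigenes, and all 3 overlapped between groups. The most abundant had 2784, 3915 and 2159.6 FPKM in T3 livers, against 2845, 2379 and 3351 FPKM in control livers (log2 difference 0.02 ± 0.24, adjusted p = 0.968). C6, which joins C5b to start the pore, averaged 235 ± 31.04 FPKM in T3 livers and 351 ± 51.6 FPKM in control livers (SD, n = 3 each) without overlap and without a call (log2 difference -0.57 ± 0.19, adjusted p = 0.0871). The most abundant of 3 C8 alpha unigenes averaged 481 ± 35.3 FPKM in T3 livers and 487 ± 61.8 FPKM in control livers (SD, n = 3 each, log2 difference -0.01 ± 0.16, adjusted p = 0.962), and 0 of the 3 were called. C8 gamma, named after its values were seen, fell to 196, 170.3 and 179.9 FPKM in T3 livers, against 371, 277 and 362 FPKM in control livers (log2 difference -0.88 ± 0.18, adjusted p = 0.0233). It lost its call without T3 liver 3, control liver 1 or control liver 3, with adjusted p of up to 0.101, and under median-ratio scaling and quantile normalization. C8 beta, its partner in the same complex, averaged 460.0 ± 50.02 FPKM in T3 livers and 322 ± 31.8 FPKM in control livers (SD, n = 3 each) and was not called (log2 difference 0.51 ± 0.17, adjusted p = 0.0841).

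The regulators hold complement in check. Factor H and factor I degrade C3b together, and 9 of their 11 unigenes had a positive difference, with 0 higher and 2 lower called. Of all unigenes tested in the liver, 30.9% had a positive difference and 8.67% were called lower. The most abundant factor H unigene had 3248, 3864 and 3547 FPKM in T3 livers, against 2745, 2175 and 2637 FPKM in control livers, with no overlap and no call (log2 difference 0.50 ± 0.15, adjusted p = 0.0729). The next had 1714, 1450.3 and 2244 FPKM in T3 livers, against 1207, 1078 and 1098 FPKM in control livers (log2 difference 0.65 ± 0.19, adjusted p = 0.0617), again without overlap. The more abundant of 2 factor I unigenes averaged 781 ± 40.4 FPKM in T3 livers and 596 ± 112 FPKM in control livers (SD, n = 3 each, log2 difference 0.40 ± 0.18, adjusted p = 0.181). The other also had a positive difference and no call. At an unadjusted p below 0.05 limma gave 3 of the 11 higher and 2 lower (1417 higher and 4252 lower of all 18923). Median-ratio scaling called 3 higher and 2 lower, and quantile normalization 1 higher and 2 lower. Another abundant factor H unigene overlapped, with an average of 917 ± 251 FPKM in T3 livers and 826 ± 154 FPKM in control livers (SD, n = 3 each). The 2 that fell were minor. TRINITY_DN122308_c5_g1 had 32.3, 42.9 and 49.8 FPKM in T3 livers, against 172, 98.7 and 153 FPKM in control livers (log2 difference -1.72 ± 0.27, adjusted p = 0.00989). TRINITY_DN86285_c0_g1 had 8.06, 5.05 and 7.32 FPKM in T3 livers, against 26.4, 17.4 and 18.9 FPKM in control livers (log2 difference -1.49 ± 0.26, adjusted p = 0.0139), and its adjusted p was up to 0.0549 without control liver 1 or control liver 3.

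The vitamin K-dependent factors held 4 of the 8 rises. Of 11 unigenes tested, 4 were higher and 0 lower (3.83% and 8.67% of all unigenes tested). Their median log2 difference was 0.64, against -0.26 for all unigenes. At an unadjusted p below 0.05 limma gave 6 higher and 0 lower (1417 higher and 4252 lower of all 18923). Without moderation of the variance 4 were also called higher, but not the same 4. They were factor IX, both protein C unigenes and a prothrombin unigene, and factor VII was lost. Protein C, the anticoagulant protease that inactivates factors Va and VIIIa, rose in both of its unigenes. TRINITY_DN94832_c3_g1 had 659, 480.3 and 682 FPKM in T3 livers, against 114, 109.9 and 132 FPKM in control livers (log2 difference 2.33 ± 0.20, adjusted p = 0.000846). TRINITY_DN122645_c6_g1 had 229, 248 and 231 FPKM in T3 livers, against 55.2, 44.2 and 50.7 FPKM in control livers (log2 difference 2.22 ± 0.17, adjusted p = 0.000683). Every T3 liver held more than 3 times the highest control liver. The second unigene stayed called in all 16 alternative fits of the liver, that without control livers 1 and 2 included.

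Factor IX, the protease that activates factor X with factor VIII as cofactor, had 187, 219 and 265 FPKM in T3 livers, against 75.9, 70.4 and 79.4 FPKM in control livers (log2 difference 1.54 ± 0.19, adjusted p = 0.00359). It was called in every alternative fit but that without control livers 1 and 2. Factor VII, which starts clotting with tissue factor, had 1 of 3 unigenes called. Its most abundant unigene had 515, 498 and 772 FPKM in T3 livers, against 659.5, 867 and 824 FPKM in control livers, and the groups overlapped (log2 difference -0.42 ± 0.22, adjusted p = 0.247). A minor unigene, closest to a chicken factor VII-like protein, had 104, 145 and 31.1 FPKM in T3 livers, against 14.5, 16.5 and 14.1 FPKM in control livers (log2 difference 2.31 ± 0.51, adjusted p = 0.0295). T3 liver 3 stood well below the other T3 livers there. The call was lost without T3 liver 1, T3 liver 2 or any one control liver, with adjusted p of up to 0.0974. It was also lost with no filter and without moderation of the variance.

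Prothrombin, the precursor of thrombin, had 1386, 1364 and 1439 FPKM in T3 livers, against 1005, 1047 and 1084 FPKM in control livers. The groups were well separated but not called (log2 difference 0.42 ± 0.13, adjusted p = 0.0812). Factor X, which cleaves prothrombin, had 301, 249 and 333 FPKM in T3 livers, against 171, 169 and 227 FPKM in control livers, also without overlap or call (log2 difference 0.64 ± 0.20, adjusted p = 0.0741). The second prothrombin unigene overlapped (log2 difference 0.50). Protein Z, a cofactor of a factor Xa inhibitor, averaged 191 ± 67.2 FPKM in T3 livers and 125 ± 25.03 FPKM in control livers (SD, n = 3 each, log2 difference 0.58 ± 0.27, adjusted p = 0.205).

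Among the cofactors, factor V had the largest rise of any member in the liver. Factor V assembles with factor Xa on membranes to convert prothrombin. TRINITY_DN120751_c3_g1 had 259.6, 199 and 333 FPKM in T3 livers, against 46.96, 46.5 and 39.9 FPKM in control livers (log2 difference 2.52 ± 0.23, adjusted p = 0.00103). Every T3 liver held more than 4 times the highest control liver. The other factor V unigene, worded as partial, went the other way in mean, at 99.4, 52.95 and 109 FPKM in T3 livers, against 145, 148 and 126 FPKM in control livers, without a call (log2 difference -0.74 ± 0.28, adjusted p = 0.131). Factor VIII was near the filter, at 1.29, 0.44 and 1.13 FPKM in T3 livers, against 2.12, 1.24 and 1.48 FPKM in control livers (log2 difference -0.43 ± 0.28, adjusted p = 0.335).

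**Figure D3:**
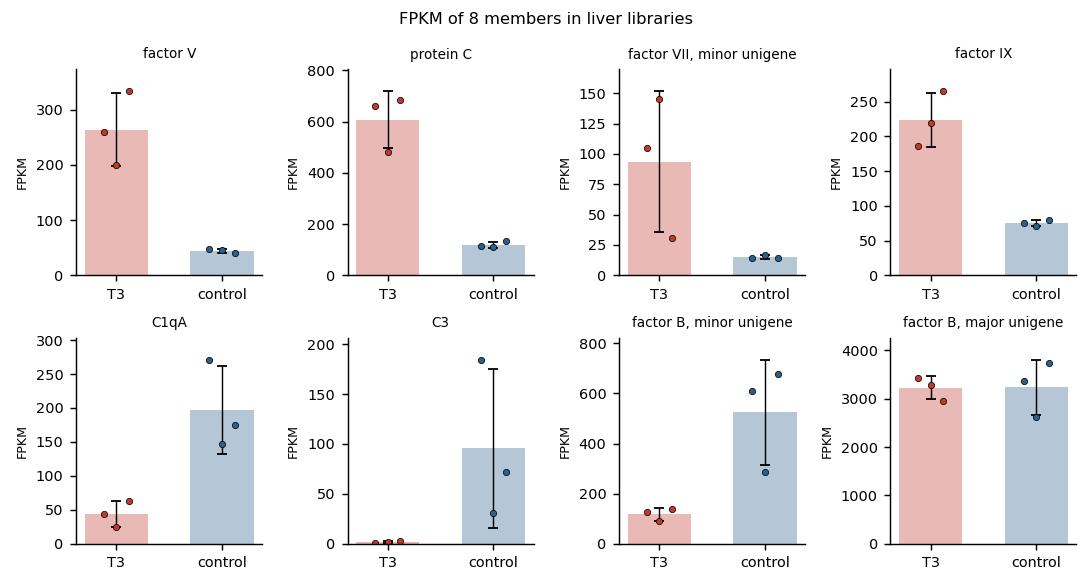
FPKM of 8 members in T3 (red, left) and control (blue, right) livers, with points for libraries, bars for means and error bars for the SD (n = 3 each). Factor V, protein C, the minor factor VII unigene and factor IX are higher in all T3 livers, C1qA, a minor C3 unigene and the minor factor B unigene are lower in all of them, and the major factor B unigene overlaps.

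Fibrinogen, by far the most abundant product, had a positive difference in all 10 unigenes (30.9% of all unigenes tested), with a median of 0.32. Of these 10, limma called 0. The count was also 0 at an unadjusted p below 0.05 and 0 without moderation. All 10 stayed positive under median-ratio scaling, quantile normalization and equal library sums. The beta chain gave log2 difference 0.47 ± 0.23, adjusted p = 0.204, the leading alpha unigene log2 difference 0.27 ± 0.24, adjusted p = 0.487 and the leading gamma unigene log2 difference 0.51 ± 0.27, adjusted p = 0.243. T3 liver 1 was highest for each of these chains and control liver 1 was highest among controls.

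The contact system starts clotting on negatively charged surfaces and frees bradykinin from kininogen. Of 5 unigenes tested, 0 were higher and 1 lower (3.83% and 8.67% of all unigenes tested). Factor XII had 58.7, 77.3 and 103 FPKM in T3 livers, against 167, 163 and 219 FPKM in control livers in the called unigene (log2 difference -1.21 ± 0.25, adjusted p = 0.0229). Its second unigene had 61.02, 62.9 and 107 FPKM in T3 livers, against 133, 132 and 175 FPKM in control livers, without overlap and without a call (log2 difference -0.96 ± 0.26, adjusted p = 0.0536). The first lost its call without T3 liver 2 or any one control liver, with adjusted p of up to 0.0927, and under median-ratio scaling and quantile normalization. Kininogen 1 averaged 1131 ± 374 FPKM in T3 livers and 833 ± 149 FPKM in control livers (SD, n = 3 each) in its major unigene (log2 difference 0.40 ± 0.27, adjusted p = 0.355), and 207 ± 29.5 FPKM in T3 livers and 279 ± 72.3 FPKM in control livers (SD, n = 3 each) in its second (log2 difference -0.41 ± 0.24, adjusted p = 0.299). Plasma kallikrein, which cleaves kininogen, averaged 81.2 ± 8.85 FPKM in T3 livers and 72.1 ± 26.3 FPKM in control livers (SD, n = 3 each, log2 difference 0.24 ± 0.30, adjusted p = 0.635).

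Factor XIII was split by unigene. The B subunit carries the catalytic A subunit in plasma. Its major unigene had 34.1, 31.6 and 41.4 FPKM in T3 livers, against 19.3, 19.1 and 21.3 FPKM in control livers (log2 difference 0.80 ± 0.19, adjusted p = 0.0372). That rise was lost without T3 liver 1, T3 liver 3 or any one control liver, with adjusted p of up to 0.127. A minor B unigene had 2.36, 0.88 and 2.20 FPKM in T3 livers, against 11.03, 7.43 and 9.15 FPKM in control livers (log2 difference -1.89 ± 0.30, adjusted p = 0.00989). The remaining B unigene was listed at 0, 16.3 and 0 FPKM in T3 livers and at 23.3, 17.8 and 0 FPKM in control livers, so it was present or absent by library within each group. Factor XIIIA had 10.1, 4.58 and 7.63 FPKM in T3 livers, against 10.3, 6.52 and 8.04 FPKM in control livers (log2 difference -0.17 ± 0.31, adjusted p = 0.744).

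In the plasminogen system, 1 of 5 unigenes tested was higher and 0 were lower (3.83% and 8.67% of all unigenes tested). Plasminogen, the precursor of plasmin, had 2 unigenes tested in the liver, and the other one had a positive difference and no call. The called unigene had 704, 1044 and 937 FPKM in T3 livers, against 589, 503 and 515 FPKM in control livers (log2 difference 0.72 ± 0.19, adjusted p = 0.0473). Without T3 liver 2, T3 liver 3 or any one control liver the call was lost, with adjusted p of up to 0.151. It was also lost with pseudocounts of 0.1 and 5 FPKM, with no filter, without moderation and with the replicate number as a block. Urokinase, a plasminogen activator, averaged 12.9 ± 5.53 FPKM in T3 livers and 5.65 ± 2.46 FPKM in control livers (SD, n = 3 each) in its major liver unigene (log2 difference 1.06 ± 0.37, adjusted p = 0.0998). The other urokinase unigene, TRINITY_DN99140_c0_g1, went the other way, lower in T3 livers without overlap and without a call. PAI-1, which inhibits both activators, was at 4.95, 13.5 and 0.35 FPKM in T3 livers, against 0.62, 0.44 and 0.34 FPKM in control livers, and reached 1 FPKM in too few livers to be tested there.

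Of the unigenes that share only the wording, the protein that binds PAI-1 mRNA fell to 236, 246 and 217 FPKM in T3 livers, against 459, 504 and 507 FPKM in control livers (log2 difference -1.07 ± 0.15, adjusted p = 0.00675). MCFD2, which ferries factors V and VIII out of the endoplasmic reticulum, had 80.9, 73.2 and 76.6 FPKM in T3 livers, against 42.6, 38.3 and 38.5 FPKM in control livers (log2 difference 0.93 ± 0.17, adjusted p = 0.016). Its adjusted p was up to 0.0727 without any one control liver. A second MCFD2 unigene had 3.53, 0.13 and 0.90 FPKM in T3 livers and 18.2, 20.1 and 0.12 FPKM in control livers, high in the 2 control livers with the most pancreas transcripts, whose part in it was not tested. C1q-binding protein, a mitochondrial matrix protein despite its name, averaged 38.02 ± 15.2 FPKM in T3 livers and 21.3 ± 1.70 FPKM in control livers (SD, n = 3 each, log2 difference 0.73 ± 0.32, adjusted p = 0.173). C1q/TNF-related protein 3, a secreted relative of C1q, was listed at 0 in all 6 livers and averaged 18.0 FPKM in T3 tails and 25.4 FPKM in control tails (adjusted p = 0.242).

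In the tail, 45 members passed the filter, and 6 were higher and 3 lower with T3, or 13.3% and 6.67% (19.2% and 6.23% of all 18429 unigenes tested, 25.4% in either direction). Median-ratio scaling gave 4 higher and 7 lower and quantile normalization 4 higher and 6 lower. The median of all unigenes was 0.31 as deposited, 0.01 after median-ratio scaling and 0.48 after scaling to equal sums, and that of members was 0.02 as deposited. Groups did not overlap for 9 members higher and 4 lower (32.9% and 10.9% of all unigenes tested). The whole set took 0.160, 0.179 and 0.154% of FPKM in T3 tails, against 0.206, 0.158 and 0.108% in control tails, which overlapped.

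C4 and C2, the substrates of C1s, fell in the tail. C4 unigene TRINITY_DN119250_c0_g1 had 12.2, 12.8 and 20.3 FPKM in T3 tails, against 121, 70.1 and 79.2 FPKM in control tails (log2 difference -2.49 ± 0.30, adjusted p = 0.000258). The second C4 unigene, from the same assembly component, had 9.72, 7.14 and 11.1 FPKM in T3 tails, against 73.8, 43.6 and 47.4 FPKM in control tails (log2 difference -2.42 ± 0.28, adjusted p = 0.000241). C2 had 4.85, 9.13 and 9.48 FPKM in T3 tails, against 43.6, 23.9 and 17.6 FPKM in control tails (log2 difference -1.69 ± 0.36, adjusted p = 0.00729). No T3 tail reached the lowest control tail in any of these, and all 3 calls held in all 6 fits without 1 library and under the 3 other scalings tried. C1s averaged 15.4 ± 7.32 FPKM in T3 tails and 29.5 ± 8.65 FPKM in control tails (SD, n = 3 each) and was not called (log2 difference -0.97 ± 0.38, adjusted p = 0.0854).

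C1qB rose in the tail, where it had 128, 79.5 and 121 FPKM in T3 tails, against 78.5, 50.2 and 45.8 FPKM in control tails (log2 difference 0.91 ± 0.29, adjusted p = 0.0418). T3 tail 2 lay only just above control tail 1. The call was lost without T3 tail 1 or 3 or control tail 2 or 3, with adjusted p of up to 0.151, and under median-ratio scaling and quantile normalization. C1qA had 50.6, 94.2 and 103 FPKM in T3 tails, against 156, 69.8 and 42.97 FPKM in control tails, a full overlap (log2 difference 0.02 ± 0.44, adjusted p = 0.976), and C1qC had 104, 126 and 86.2 FPKM in T3 tails, against 101, 76.2 and 32.7 FPKM in control tails (log2 difference 0.71 ± 0.38, adjusted p = 0.188). Macrophage and leukocyte markers took 0.0115, 0.0146 and 0.00796% of FPKM in T3 tails, against 0.0116, 0.00631 and 0.00409% in control tails, and their part in these values was not tested.

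Factor B rose as well. It had 41.6, 37.98 and 39.3 FPKM in T3 tails, against 22.9, 19.2 and 11.1 FPKM in control tails (log2 difference 1.17 ± 0.29, adjusted p = 0.0142), and without T3 tail 1 its adjusted p was 0.0523. Factor H unigene TRINITY_DN86285_c0_g1 had 38.2, 59.7 and 37.03 FPKM in T3 tails, against 18.5, 33.3 and 18.5 FPKM in control tails (log2 difference 0.93 ± 0.31, adjusted p = 0.0472). It lost its call in 5 of 6 fits without 1 library, those without any one T3 tail, control tail 1 or control tail 3, with adjusted p of up to 0.207, and under median-ratio scaling and quantile normalization. Properdin had 86.6, 92.05 and 65.5 FPKM in T3 tails, against 188, 149.8 and 78.5 FPKM in control tails with overlapping groups (log2 difference -0.69 ± 0.33, adjusted p = 0.144). All 8 regulator unigenes tested had a positive difference (7 under median-ratio scaling and quantile normalization), as did 68.2% of all unigenes tested in the tail as deposited, and limma called 1 of them, the factor H unigene above. All 4 terminal ones had a negative difference, 3 of them a positive one under equal library sums. At an unadjusted p below 0.05 limma gave 3 regulator unigenes higher and 0 terminal ones in either direction (5407 higher and 1773 lower of all 18429). Without moderation 0 of either were called.

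Factor XIIIA had the largest rise of any member in the tail, with 46.5, 58.9 and 49.5 FPKM in T3 tails, against 25.9, 15.2 and 11.6 FPKM in control tails (log2 difference 1.57 ± 0.30, adjusted p = 0.00443). All T3 tails lay well above all control tails. Tissue-type plasminogen activator, which turns plasminogen into plasmin on fibrin, had 8.4, 12.5 and 7.57 FPKM in T3 tails, against 3.89, 2.47 and 3.55 FPKM in control tails (log2 difference 1.27 ± 0.27, adjusted p = 0.00761). Both calls held in all 6 fits without 1 library and were lost only without moderation of the variance. Urokinase had 4.45, 4.22 and 4.22 FPKM in T3 tails, against 2.94, 2.24 and 1.70 FPKM in control tails and was not called, though the groups did not overlap (log2 difference 0.70 ± 0.25, adjusted p = 0.0605). Marker lists of other cells also differed in the tail. Thrombocyte and endothelium markers took 0.00708, 0.00690 and 0.00606% of FPKM in T3 tails, against 0.00334, 0.00299 and 0.00229% in control tails with no overlap, and 5 of 9 tested were called higher and 1 lower. Skeletal muscle markers took 1.20, 1.09 and 1.70% in T3 tails, against 1.64, 2.63 and 4.09% in control tails with overlap, and had 0 of 14 higher and 8 lower. Erythrocyte markers took 1.11, 0.680 and 1.11% in T3 tails, against 0.209, 0.455 and 0.726% in control tails with overlap, and had 5 of 13 higher and 1 lower. Of all unigenes tested in the tail, 19.2% were called higher and 6.23% lower. Under median-ratio scaling and under quantile normalization, thrombocyte and endothelium markers had 3 higher and 1 lower. Muscle markers had 0 higher and 6 lower under each, and erythrocyte markers 5 higher and 1 lower. The part of these cells in the tail differences of the members was not tested. Plasminogen is the substrate of both activators. One of its 3 unigenes averaged 0.423 FPKM in T3 tails and 0.443 FPKM in control tails, too low to be tested there. Another plasminogen unigene passed the filter in the tail, the only 1 of the 3 to do so, with a negative difference and no call.

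The main factor VII unigene had 3.22, 3.43 and 2.82 FPKM in T3 tails, against 1.43, 1.25 and 1.13 FPKM in control tails (log2 difference 0.87 ± 0.24, adjusted p = 0.022). The level was low and the call was lost without any one T3 tail or without control tail 2, with adjusted p of up to 0.0965. Factor X, at 40.05, 43.1 and 35.6 FPKM in T3 tails, against 39.6, 28.9 and 23.7 FPKM in control tails, and the partial factor V unigene, at 135, 163 and 186 FPKM in T3 tails, against 136, 127 and 84.2 FPKM in control tails, had among the highest tail levels of the coagulation members. Neither was called (log2 difference 0.38 ± 0.26, adjusted p = 0.302; log2 difference 0.50 ± 0.26, adjusted p = 0.184). The 7 fibrinogen unigenes tested averaged between 1.26 and 5.497 FPKM in control tails, and 0 were called (0 at an unadjusted p below 0.05 and 0 without moderation).

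**Figure D4:**
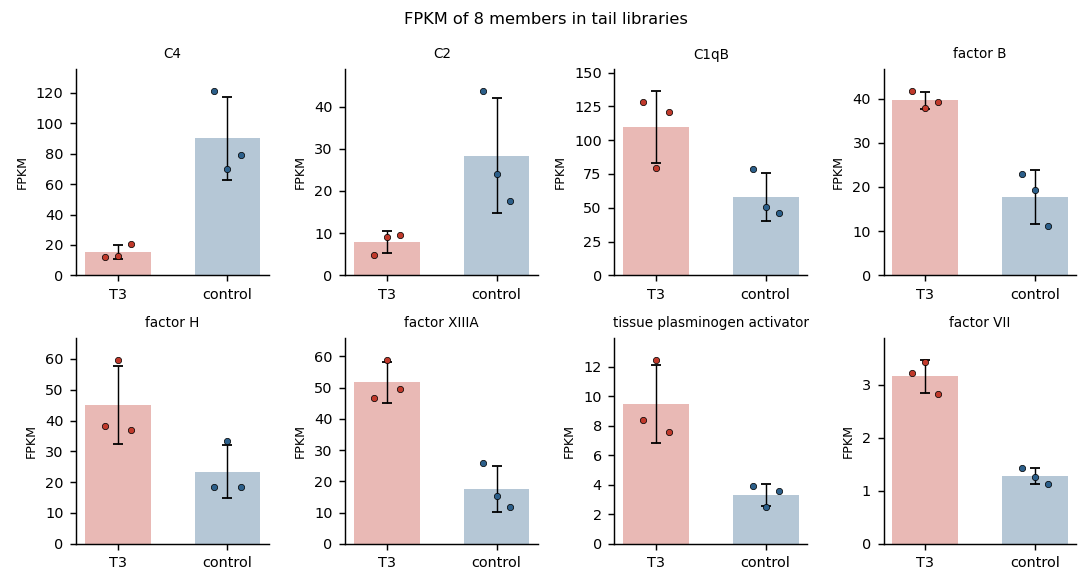
FPKM of 8 members in T3 (red, left) and control (blue, right) tails, with points for libraries, bars for means and error bars for the SD (n = 3 each). C4 and C2 are lower in all T3 tails, and C1qB, factor B, factor H, factor XIIIA, tissue plasminogen activator and factor VII are higher in all of them.

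The T3 effect in the liver minus that in the tail was tested directly, with all 100 members in the fit. It was called for 27, 7 of them higher and 20 lower in the liver (3.48% and 14.3% of all 24085 unigenes tested, 17.8% in either direction). Median-ratio scaling gave 20 higher and 8 lower and quantile normalization 12 higher and 9 lower, and the median of all unigenes was -0.48 as deposited and 0.04 and -0.03 after these scalings. Without control livers 1 and 2, all 27 kept their direction and 8 stayed called. Members near 0 FPKM in the tail entered with an effect fixed near 0 there, so their differences largely restate the liver. Of 42 members tested in both tissues, 15 were called, 4 higher and 11 lower. The matching share over all unigenes tested in both tissues was not computed, so whether 15 of 42 is unusual was not tested.

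The strongest contrasts within those 42 were in C1q and factor H. C1qB was lower in mean in T3 livers and higher in T3 tails (log2 difference -2.73 ± 0.62, adjusted p = 0.0112 between tissues), and C1qC differed likewise (log2 difference -2.59 ± 0.70, adjusted p = 0.0254). The call of C1qC was lost without control liver 1, T3 tail 1, T3 tail 2 or control tail 3, with adjusted p of up to 0.0683. Factor H unigene TRINITY_DN86285_c0_g1, the only member called in both tissues, fell in the liver and rose in the tail (log2 difference -2.42 ± 0.41, adjusted p = 0.00212). The other fallen factor H unigene gave log2 difference -2.82 ± 0.59, adjusted p = 0.00729. Factor XIIIA (log2 difference -1.74 ± 0.44, adjusted p = 0.0189), tissue-type plasminogen activator (log2 difference -2.02 ± 0.44, adjusted p = 0.00973) and the main factor B unigene (log2 difference -1.16 ± 0.33, adjusted p = 0.0285) rose in the tail and were not called in the liver. Factor XIIIA lost its call without T3 tail 2 (adjusted p = 0.0558), and factor B lost its own without T3 liver 3, control liver 1 or 3 or any one T3 tail (up to 0.0703). Under median-ratio scaling the calls of C1qC, factor XIIIA and factor B were lost, and under quantile normalization those of tissue-type plasminogen activator and factor B.

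Factor V unigene TRINITY_DN120751_c3_g1 (log2 difference 1.95 ± 0.46, adjusted p = 0.013) and protein C (log2 difference 2.57 ± 0.32, adjusted p = 0.000249 and log2 difference 1.61 ± 0.38, adjusted p = 0.0129) had a higher T3 effect in the liver than in the tail. They rose in the liver, and in the tail factor V and one protein C unigene were not called (adjusted p = 0.263 and 0.184), while protein C unigene TRINITY_DN94832_c3_g1 was under 1 FPKM in all 6 tails. Factor IX gave log2 difference 1.56 ± 0.27, adjusted p = 0.00236 and the minor factor VII unigene log2 difference 2.46 ± 0.59, adjusted p = 0.0153, both likewise under 1 FPKM in all 6 tails. C4 fell in the tail, and its T3 effect was 1.65 and 1.78 higher in the liver on the log2 scale (adjusted p = 0.0146 and 0.0192), where it was also lower in mean. The second of these was lost without T3 tail 2 (adjusted p = 0.0569).

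**Figure D5:**
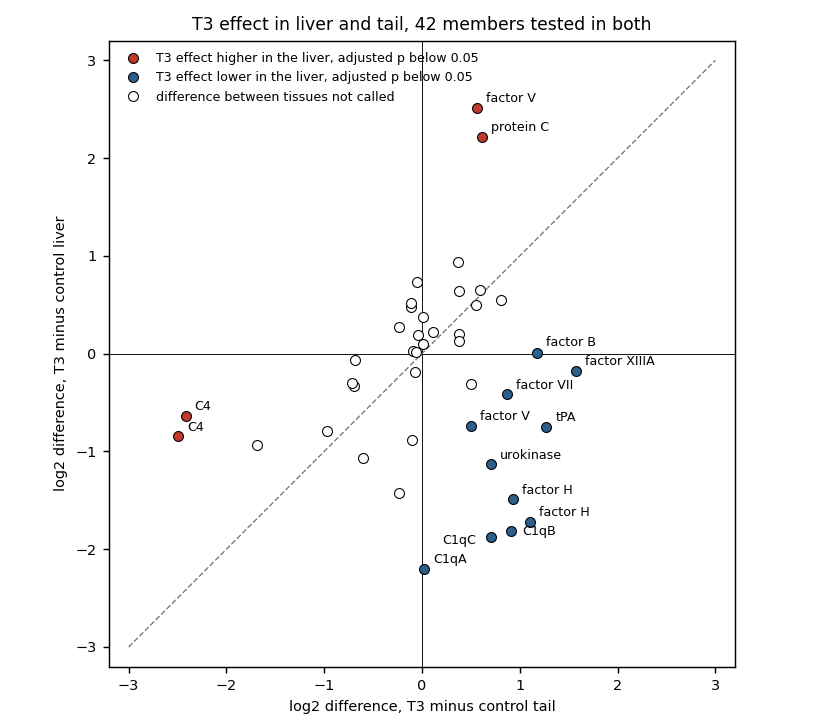
Log2 difference of FPKM + 1 in the tail (horizontal) and in the liver (vertical) between T3 and control libraries for the 42 members tested in both tissues, with equal effects on the dashed line. Filled points are members whose T3 effect differed between tissues, 4 higher in the liver (red) and 11 lower (blue).

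Genes that act beside the members were read from the same fits. Lectin pathway proteases and ficolins, which start complement from microbial sugars, had 0 higher and 3 lower of 12 tested in the liver (7 lower at an unadjusted p below 0.05, as were 4252 of all 18923, and 0 without moderation). The 3 were ficolin 2-like unigenes and a mannan-binding lectin serine protease 2 unigene, which averaged 139.6 FPKM in T3 livers and 229 FPKM in control livers (log2 difference -0.72, adjusted p = 0.0385). That protease was not called under any of the 3 other scalings, with adjusted p of up to 0.292. Ficolin 2-like unigene TRINITY_DN98334_c3_g1 (log2 difference -2.91, adjusted p = 0.0495) also lost its call under all 3, with adjusted p of up to 0.0833. The other ficolin 2-like unigene kept its call under all 3. Of all unigenes tested in the liver, 3.83% were called higher and 8.67% lower. Soluble inhibitors had 2 higher and 4 lower of 22 in the liver (3.83% and 8.67% of all unigenes tested), all 6 worded alpha-2-macroglobulin-like. Median-ratio scaling gave 3 higher and 2 lower, quantile normalization 2 higher and 2 lower, and the fit without moderation 1 higher and 0 lower. Antithrombin averaged 599 FPKM in T3 livers and 881 FPKM in control livers (adjusted p = 0.0934), and C1 inhibitor 373 FPKM in T3 livers and 485 FPKM in control livers (adjusted p = 0.259). In the tail 2 of 7 inhibitors rose, alpha-2-antiplasmin (7.83 FPKM with T3 and 1.20 FPKM in controls, adjusted p = 0.00137) and tissue factor pathway inhibitor 2 (56.0 FPKM with T3 and 19.3 FPKM in controls, adjusted p = 0.0022). There, 19.2% of all unigenes tested were called higher.

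Receptors and membrane regulators had 0 higher and 2 lower of 22 in the liver (3.83% and 8.67% of all unigenes tested there). At an unadjusted p below 0.05 limma gave 0 higher and 5 lower (1417 and 4252 of all 18923), and without moderation 0 and 1 were called. In the tail they had 5 higher and 1 lower of 24, or 20.8% and 4.17%, against 19.2% and 6.23% of all unigenes tested there. Under median-ratio scaling the tail counts were 3 higher and 3 lower, and under quantile normalization 4 higher and 3 lower. The C5a receptor, at 17.5 FPKM in T3 tails and 5.32 FPKM in control tails (adjusted p = 0.02), and CD59, which blocks the pore, at 157.7 FPKM with T3 and 96.0 FPKM in controls (adjusted p = 0.0457), were among those called higher. CD59 lost its call under median-ratio scaling (adjusted p = 0.145). Hepatic and acute phase regulators had 1 higher and 1 lower of 18 in the liver (3.83% and 8.67% of all unigenes tested). In the tail they had 4 higher and 0 lower of 9 (19.2% and 6.23%). Without moderation 0 were called in the liver. Gamma-glutamyl carboxylase, the enzyme that vitamin K-dependent factors need, rose in both tissues. It averaged 18.8 FPKM in T3 livers and 6.14 FPKM in control livers (log2 difference 1.46, adjusted p = 0.0147), and 12.8 FPKM in T3 tails and 3.66 FPKM in control tails (1.56, adjusted p = 0.00203). Its liver call was lost without moderation, and its part in the rises of those factors was not tested. Hepatocyte nuclear factor 4, a regulator of hepatic clotting genes in mammals, averaged 21.1 FPKM in T3 livers and 9.99 FPKM in control livers in its major unigene and was not called (adjusted p = 0.0742). SOCS3, a target of acute phase signalling, had 1 unigene lower in the liver, at 0.367 FPKM with T3 and 2.16 FPKM in controls (adjusted p = 0.0332), and it was not called under median-ratio scaling or quantile normalization (adjusted p = 0.0647 and 0.0929).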

How the data were processed

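RNA was sequenced from 12 libraries, 3 each of T3 and control livers and tails. The authors cleaned the reads, assembled them with Trinity into unigenes named by their best match in a protein database, aligned reads with Bowtie, quantified them with RSEM and deposited FPKM values, which carry neither counts nor depth. A de novo assembly can split a gene over several unigenes, so the level of a gene with several names is divided among them.

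FPKM were analysed as log2(FPKM + 1), which understates the change of low genes. A unigene was tested where 3 or more libraries of the tissue, or of all 12 for comparisons between tissues, held 1 FPKM or more, by limma 3.58.1 in R 4.3.3 (trended moderation), and p-values were adjusted over all unigenes tested by Benjamini-Hochberg. Calls were made at an adjusted p below 0.05. The ± after a log2 difference is its SE and that after an FPKM mean its SD. An exact permutation test of 3 against 3 libraries cannot go below 0.1. The fits were also run on simulated data, with normal noise of equal spread in both groups and changes planted only in the more abundant unigenes. That run cannot speak to low levels, to the control livers with pancreas transcripts or to the scaling.

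Members, gene lists and roles were chosen with earlier results of these data known. Named members were, in each role, the 4 highest in liver and the 2 highest in tail, the 5 largest called rises and falls in each tissue, and the 5 largest called differences between tissues in each direction. C1r, protein Z, C5, C6, C8 beta, C8 gamma, plasma kallikrein, C1q/TNF-related protein 3, 3 further C3 unigenes and the genes named from the other lists were added after their values were seen. Alternatives were pseudocounts of 0.1 and 5 FPKM, no filter, a filter on every library, median-ratio, equal-sum and quantile scaling, no moderation, a replicate block and leaving out libraries. A block joining liver and tail libraries was chosen after seeing the data.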

Additional observations from a re-analysis of the deposited data

Results flagged for a closer look

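The T3 effect differed between liver and tail, by the interaction term in limma, for 27 of the 100 members (17.8% of all 24085 unigenes tested). The largest of these on the log2 scale, liver minus tail, were C3 unigene TRINITY_DN99407_c1_g1 at -4.83, factor H unigene TRINITY_DN122308_c5_g1 at -2.82, C3 unigene TRINITY_DN112843_c3_g4 at -2.77, C1qB at -2.73 and C1qC at -2.59. On the positive side stood protein C unigene TRINITY_DN94832_c3_g1 at 2.57, the minor factor VII unigene at 2.46, factor V at 1.95 and the C4 unigenes at 1.78 and 1.65. Both C3 unigenes, this protein C unigene and this factor VII unigene were under 1 FPKM in all 6 tails, so their differences largely restate the liver. C3 unigene TRINITY_DN112843_c3_g4 lost its call without control tail 3 (adjusted p = 0.0502). As deposited, 7 of the 27 calls were positive and 20 negative (3.48% and 14.3% of all unigenes tested). Median-ratio scaling reversed this balance to 20 positive and 8 negative calls, and 15 of its calls were among the 27. Quantile normalization gave 12 positive and 9 negative calls. The prevailing direction of the calls therefore depended on the scaling.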

How the results depend on the processing

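The deposited values give no counts, so the depth behind low values is unknown, and 3 libraries were compared per group. In the liver, the 23 calls became 13 with no filter, 7 without moderation and 2 without control livers 1 and 2, and ranged between 12 and 20 when 1 library was left out. In the tail, the 9 calls became 3 without moderation and ranged between 5 (without T3 tail 1) and 11. Over all unigenes, the fit without moderation called 270 higher and 630 lower of 18923 in the liver. In the tail it called 1391 higher and 385 lower of 18429. For the difference between tissues, the 27 calls became 17 with a pseudocount of 0.1 FPKM, 10 of 32 tested when every library had to reach 1 FPKM, and 9 without control livers 1 and 2, and ranged between 16 (without T3 tail 2) and 29. Of the 86 members called between control tissues, 26 of 32 tested remained with 1 FPKM required in every library, and the count ranged between 79 and 87. The filters removed unigenes and the left-out libraries lowered n, and other causes were not tested. Median-ratio scaling shared 15 of the 23 liver calls, 7 of the 9 tail calls and 15 of the 27 differences. Of 2601 values of named members under the alternatives, 2357 kept their side of the threshold, 181 lost a call and 63 gained one. Values called in neither the main nor the alternative fit count among the 2357 even where their sign changed. Among values called in either fit, 0 changed direction.

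Same-numbered libraries correlated in their deviations from the group means at r of 0.209, 0.0667 and 0.133 between T3 and control livers, 0.0255, 0.0411 and 0.0501 between T3 and control tails, 0.0697, -0.0729 and 0.166 between T3 livers and T3 tails, and 0.0884, 0.166 and 0.0678 between control livers and control tails. In this last pair of groups every same-numbered r was above every other (at most 0.0385), a hint of shared numbers from the data alone. The sample titles give livers and tails the same numbers but do not say whether a number stands for one animal. Libraries were not paired, since no pair of groups had all 3 same-numbered r above 0.1. If livers and tails do share animals, the comparisons between tissues treat paired libraries as independent. With the replicate number as a block, calls were 28 in the liver, 10 in the tail, 26 for the difference and 88 between control tissues. The block joining liver and tail libraries, chosen after seeing the data, gave 22 for the difference and 88 between control tissues.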

Other observations

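Outside the members, the unigene most alike in level over the 12 libraries to the mean of the members' standardised values was a mug1 protein, of the alpha-2-macroglobulin family (Pearson r = 0.9981), followed by a cytochrome P450 2K1-like unigene (0.9971), nipsnap homolog 1 (0.9960) and unigenes worded as A.superbus venom factor 1 (0.9957 and 0.9955). These points share libraries and fall into a liver and a tail cluster, so r describes the difference between tissues. Members were chosen by wording alone, so unigenes outside them may include relatives of members under other names.

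A few members were present or absent by library. C3 unigene TRINITY_DN100450_c3_g2 had 0, 10.2 and 8.45 FPKM in T3 livers, against 0.75, 15.0 and 14.9 FPKM in control livers. In all, 8 members were listed at 0 in at least 1 liver library.

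A unigene worded integrin alpha-M-like, a chain of complement receptor 3 in mammals, averaged 1.94 FPKM in T3 livers and 31.7 FPKM in control livers (log2 difference -3.57, adjusted p = 0.00235, limma). Alpha-2-macroglobulin-like unigene TRINITY_DN120864_c4_g2 averaged 2615 FPKM in T3 livers and 862 FPKM in control livers (log2 difference 1.58, adjusted p = 0.00278), while alpha-2-macroglobulin-like 1 unigene TRINITY_DN109956_c6_g1 averaged 86.0 FPKM in T3 livers and 252 FPKM in control livers (-1.66, adjusted p = 0.0249).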
